A study of Homo sapiens with 4 samples.

Results

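Readthrough genes are annotated where RNA polymerase passes the end of one gene and continues into the next, so that a single spliced RNA joins exons of both neighbours. The files list 132 of them among 27685 genes, and each was recognised by a symbol made of a pair of other gene symbols joined by a hyphen, both of which have rows of their own. Those neighbours are called the upstream part and the downstream part here, in the order in which the symbol gives them. The study put an N-terminal Myc-tagged TRIM40, an E3 ubiquitin ligase, into HT-29 cells, an established human colon cancer line, and compared these Myc-TRIM40 cells with cells carrying the control vector, called Mock. Both kinds of cell share the HT-29 background and received no treatment, and RNA-seq was run in 2 independent experiments with 1 Mock and 1 Myc-TRIM40 library each, so every condition has 2 libraries. The methods describe viral transduction with puromycin selection but do not say whether the line was a clone or a pool, and the transgene is driven by a vector rather than by the gene's own promoter.

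A polyadenylation signal at the end of a gene is normally recognised by cleavage and polyadenylation factors, which cut the RNA and let the polymerase stop. When that step is skipped, the splicing machinery can remove the last exon's end and the space between the genes, and the joined RNA may encode a fusion of both proteins or carry an early stop codon that exposes it to nonsense-mediated decay. Because nearly all exons of such an RNA also belong to its parts, a short read from a shared exon does not say which gene it came from. Software that estimates transcripts has to divide those reads, and only reads in the joining splice junction or in exons of its own name the readthrough RNA.

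TRIM40 had 0 reads in both Mock libraries, 272646 reads in Myc-TRIM40 of experiment 1 and 110665 in Myc-TRIM40 of experiment 2, at least 88493-fold and 36556-fold higher than a floor of 3 reads in the Mock library. The 4 libraries held between 60954602 and 67424698 reads. All 8 markers of colon epithelium were at 1 FPKM or more in every library, where FPKM is the read count scaled by transcript length and library size, and summed to between 6365 and 8961 FPKM. Of 8 markers of immune cells, fibroblasts and endothelium, CD1C was at 0 in all 4 libraries, PTPRC and ITGAX had at most 5 reads, and CD14 and CD68 reached 1 FPKM in each, and the list summed to between 9.08 and 15.4 FPKM.

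The sequence that sets a readthrough RNA apart is small. In GENCODE 29, built on GRCh38, 118 of the readthrough genes could be compared with transcripts of both of their parts. The comparison covered 175 pairs of a RefSeq and a GENCODE transcript. Where several RefSeq names share a GENCODE transcript, it is counted for each of them. Each transcript was read in windows of 31 bases, and a window was counted as private where it occurs in no transcript of either part. The median readthrough gene had 3.82% private windows in its most distinctive transcript, 66 genes had under 5% and 2 had none. A direct splice from an exon of the upstream part to an exon of the downstream part was found in 143 pairs. The 30 bases around the splice were absent from the parts' transcripts in 137 of them. Of the 175 pairs, 119 have a GENCODE transcript annotated as protein coding and 49 one annotated as a target of nonsense-mediated decay.

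The junctions of the readthrough genes on which the results turn are given 5′ to 3′ from the GENCODE 29 transcripts. Lower case marks the last 15 bases of the upstream exon and capitals the first 15 bases of the downstream exon, the point that tells the joined RNA from either part. LY75-CD302 has a junction for each of its 2 transcripts. The junction of PHOSPHO2-KLHL23 is that of its coding transcript. Its noncoding transcript, which held all 681 reads of the gene in Myc-TRIM40 of experiment 2, was not among the transcripts compared.
PHOSPHO2-KLHL23: gaaatactaagttggCCATGGCTCTAAAAG
LY75-CD302, first transcript: ctcaacattctgttgACTGTCCTTCATCTA
LY75-CD302, second transcript: gcaaagtgcctctggACTGTCCTTCATCTA
GPR75-ASB3: gcggccacccggcagACTGGTCAAACAAAT
HSPE1-MOB4: ggttctaaaggaaagGATTTCTATAATTGG
In GRCh38 coordinates these splices span chr2:169697531-169735013 on the plus strand for PHOSPHO2-KLHL23, and chr2:159783469-159808449 and chr2:159783469-159806973 on the minus strand for LY75-CD302. They span chr2:53765585-53859828 on the minus strand for GPR75-ASB3 and chr2:197501238-197523624 on the plus strand for HSPE1-MOB4. The LY75-CD302 transcripts end their LY75 portion at different exons and enter CD302 at the same base. Private windows were 29 of 2057 in PHOSPHO2-KLHL23 and 27 of 5452 and 28 of 5620 in LY75-CD302. A splice is crossed by 30 such windows, so in PHOSPHO2-KLHL23 and LY75-CD302 little beside the splice is private. The GENCODE model of PHOSPHO2-KLHL23 is 2087 bases long, whereas the transcript of the same RefSeq name in the files is 4229 bases long. Those of LY75-CD302 are 5482 and 5650 bases long, against 8751 and 8919 bases in the files. The private share of the files' own models was thus not measured for either gene.

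The 132 readthrough genes lie on 23 chromosomes and hold 225 transcripts. In 81 of them at least 1 transcript has a coding RefSeq name and in 51 none has. The parts of 123 lie apart, by a median of 7219 bases and by between 103 and 138048 bases, and 75 of these pairs are within 10000 bases of each other. In 8 readthrough genes the parts overlap each other in the files, and for BORCS7-ASMT the gene listed as ASMT lies on another chromosome, so no locus was built for it. The remaining 131 have both parts on the same stretch as themselves, and where a part belongs to several readthrough genes the genes were chained, which gave 129 loci. Of the promoter windows listed by RefSeq for 98 readthrough genes and their upstream parts, 49 start at the same base, against 0 of 83 for readthrough genes and their downstream parts.

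Reads assigned to readthrough genes were a small part of each library. The 132 genes together had 24338 reads in Mock and 24617 in Myc-TRIM40 of experiment 1, and 22739 in Mock and 26734 in Myc-TRIM40 of experiment 2. These are 0.0399%, 0.0403%, 0.0337% and 0.0427% of the respective libraries in the same order. Both Myc-TRIM40 sums were above both Mock sums, narrowly in experiment 1. Single genes weigh on that order. PHOSPHO2-KLHL23 alone had 0 reads in Mock and 630 in Myc-TRIM40 of experiment 1. ANKHD1-EIF4EBP3 had 6868 and 6391 reads in experiment 1, then 1802 and 4341 in experiment 2. The order is therefore not read as a rise of the whole set. In bulk RNA a change in the number of cells that make an RNA and a change in the amount per cell cannot be told apart. The 10 genes with the most reads held 47.6% of the mean total. At the other end, 15 genes had 0 reads in all libraries, 17 had between 1 and 9 in their highest library and 100 had at least 10 in some library. Of the 132, 90 passed the expression filter of edgeR and 42 did not.

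Per length, 37 readthrough genes averaged at least 1 FPKM over the 4 libraries and the highest, ANKHD1-EIF4EBP3, averaged 9.14 FPKM. The 90 tested genes had a median of 0.722 FPKM and the parts of the same loci a median of 7.77 FPKM. In reads, the median of the tested readthrough genes was 126, against 1298 for the 206 parts tested and 1454 for all 14868 genes tested. The share of the locus, which is the readthrough gene's percentage of the reads of itself and its parts, had a median of 1.75% and 1.60% in Mock and Myc-TRIM40 of experiment 1 and of 1.17% and 1.70% in experiment 2, over 119 loci with at least 30 reads in every library.

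The comparison of Myc-TRIM40 with Mock put 3 of the 90 tested readthrough genes past the threshold of edgeR's quasi-likelihood test, with the experiment as a block and an adjusted p of 0.05 over all genes. PHOSPHO2-KLHL23 and LY75-CD302 were higher in the Myc-TRIM40 libraries, and 1 was lower. Among all genes tested, 0.0605% were past the threshold, 0.0404% as higher and 0.0202% as lower. The members were selected on their symbols, and the set was taken up because differences between Myc-TRIM40 and Mock in these libraries were known, so these counts are a description and nothing is read from them. DESeq2 put 0 of them past the threshold as higher, where 0.303% of all genes were, and 1 as lower, where 0.0605% were. Without the block, or with no filter on low counts, edgeR put 0 readthrough genes past the threshold. At an unadjusted p under 0.05 the count was 13 of 90, 7 higher and 6 lower, beside 4.54% of all genes in either direction.

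PHOSPHO2-KLHL23 (chr2:170550941-170608396 in hg19, the build of the files) joins PHOSPHO2, a phosphatase, to KLHL23, a kelch-family protein. It had 0 reads in both Mock libraries, 630 reads in Myc-TRIM40 of experiment 1 and 681 in Myc-TRIM40 of experiment 2, at least 204-fold and 225-fold higher than the floor of 3 reads. The conditions did not overlap. Its level was 2.37 FPKM and 3.52 FPKM in the Myc-TRIM40 libraries. KLHL23 was lower in the libraries in which reads were assigned to the readthrough gene. KLHL23 had 1737 reads in Mock and 765 in Myc-TRIM40 of experiment 1, and 1954 and 1226 reads in experiment 2. PHOSPHO2 had 163 and 128 reads in experiment 1, then 339 and 225 in experiment 2. Neither part passed the threshold.

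Added together, PHOSPHO2-KLHL23 and KLHL23 had 1737 reads in Mock and 1395 in Myc-TRIM40 of experiment 1, and 1954 and 1907 reads in experiment 2, log2 ratios of -0.35 and -0.05. That sum was the lower with Myc-TRIM40 in both experiments. The sum of PHOSPHO2-KLHL23 and PHOSPHO2 was the higher, with 163 and 758 reads in experiment 1, then 339 and 906 in experiment 2, log2 ratios of 2.18 and 1.41. Of the locus, the readthrough gene took 0 of 1900 reads in Mock of experiment 1, which allows a share of up to 0.158%, and 0 of 2293 in Mock of experiment 2, which allows up to 0.131%. It took 41.4% (Wilson 95% interval 38.9 to 43.9) in Myc-TRIM40 of experiment 1 and 31.94% (29.997 to 33.952) in Myc-TRIM40 of experiment 2. Intervals and floors of this kind cover counting error only. Within the gene, all 630 reads of experiment 1 were given to a coding transcript of 4229 bases and all 681 reads of experiment 2 to a noncoding transcript of 3014 bases, so the libraries that have reads do not share a transcript.

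LY75-CD302 (chr2:160625139-160761267 in hg19) joins LY75, an endocytic lectin receptor also known as DEC-205, to CD302, another C-type lectin receptor. It had 0 reads in both Mock libraries and 238 and 377 reads with Myc-TRIM40 in experiments 1 and 2, at least 77.2-fold and 125-fold higher than the floor. Its level in the Myc-TRIM40 libraries was 0.43 FPKM and 0.66 FPKM. LY75 had 3102 reads in Mock and 3099 in Myc-TRIM40 of experiment 1, and 2104 and 3359 reads in experiment 2. CD302 had 813 and 562 reads in experiment 1, then 823 and 703 in experiment 2, lower with Myc-TRIM40 both times without passing the threshold.

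LY75-CD302 and CD302 together had 813 and 800 reads in experiment 1, then 823 and 1080 in experiment 2, and LY75-CD302 and LY75 together had 3102 and 3337, then 2104 and 3736. The readthrough gene took 0 of 3915 locus reads in Mock of experiment 1 and 0 of 2927 in Mock of experiment 2, which allows up to 0.0766% and 0.102%. In the Myc-TRIM40 libraries it took 6.10% (5.39 to 6.90) and 8.49% (7.71 to 9.35). Unlike PHOSPHO2-KLHL23, both of its transcripts had reads in both Myc-TRIM40 libraries, 127 and 111 in experiment 1, then 186 and 191 in experiment 2.

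**Figure D1:**
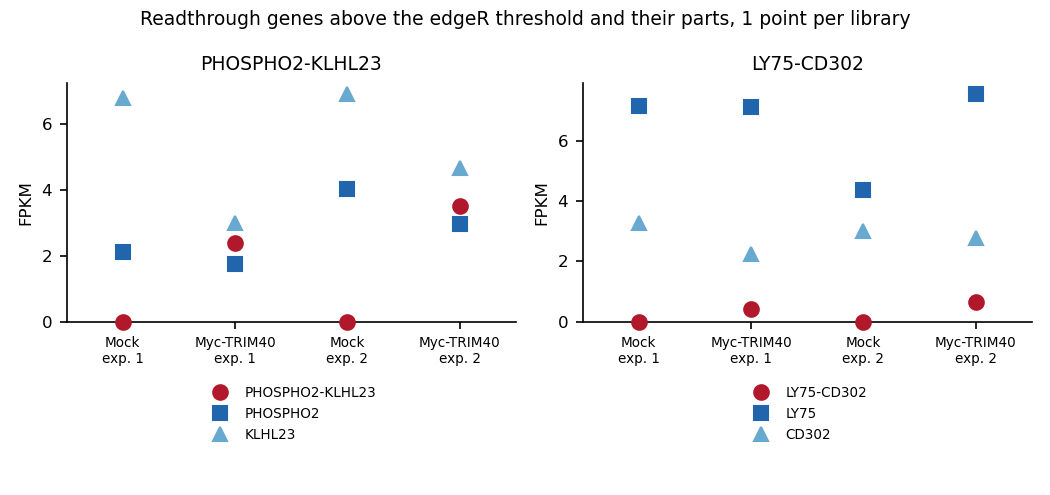
FPKM of PHOSPHO2-KLHL23 and LY75-CD302 (red circles), their upstream parts (dark blue squares) and their downstream parts (light blue triangles), with 1 point per library and the 4 libraries along the horizontal axis. Both readthrough genes lie at 0 FPKM in both Mock libraries and reach 3.52 FPKM and 0.66 FPKM with Myc-TRIM40.

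Summing each readthrough gene with its parts to 1 locus before the test removes the division of shared reads from the comparison. Where the parts hold most of the reads, it also leaves little of the readthrough gene's own change in the sum. Of 119 loci tested, edgeR put 0 past the threshold, with 7 at an unadjusted p under 0.05. DESeq2 and edgeR without the block also found 0. The lowest adjusted p among the loci was 0.881, and their log2 fold changes ran from -0.55 to 0.80. Of all 14691 features tested with the loci summed, 0.0408% were past the threshold. At the loci named above, the log2 fold change was -0.24 for PHOSPHO2-KLHL23 and 0.27 for LY75-CD302.

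The whole set was compared with its loci in the same way. At 2-fold or more in CPM, the read count scaled to a common library size, 32 of 90 readthrough genes (35.6%) differed between conditions in experiment 1, where 5.8% of all genes tested did, and 31 of 90 (34.4%) in experiment 2, where 7.51% did. Among the parts 8.25% did in experiment 1 and 11.7% in experiment 2. Other genes that overlap a neighbour, 4086 in number, gave 5.16% and 8.13%. Of the 32 readthrough genes of experiment 1, the summed locus differed by 1.5-fold or more in 2, and of the 31 of experiment 2, in 7. The tested genes held a median of 3.24% of the reads of their loci, averaged over the libraries. A change near 2-fold in most of them could therefore not move the locus by 1.5-fold, whatever its origin. Across the 4 libraries the median range of log2 CPM was 1.61 for the readthrough gene and 0.59 for its locus, and the locus had the smaller range in 78 of 90. A sum made mostly of parts with more reads would vary less in any case, so nothing is read from that order.

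**Figure D2:**
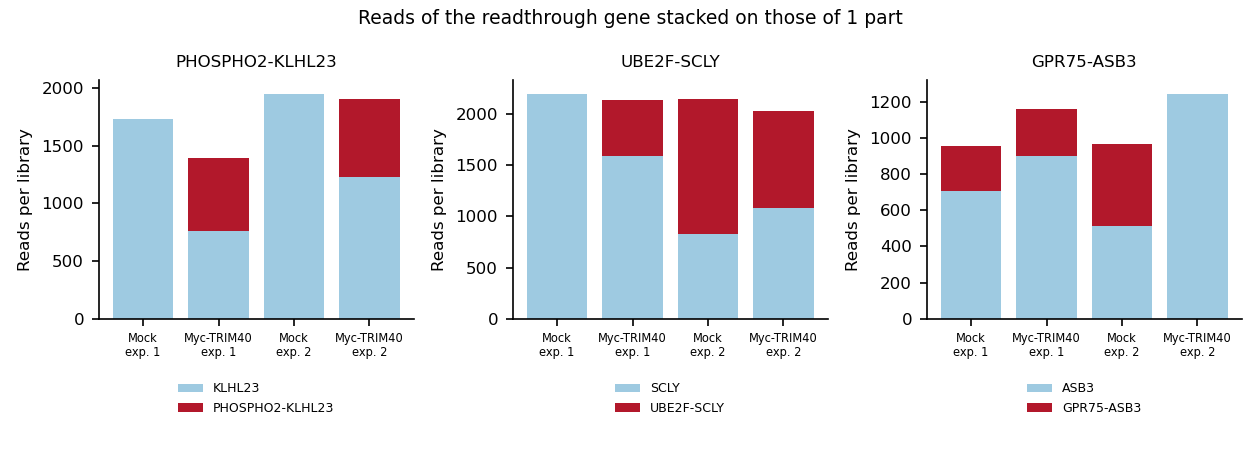
Reads per library of 3 readthrough genes (red) stacked on those of 1 of their parts (light blue), picked after its values were seen, with the 4 libraries along the horizontal axis. The red portion ranges from 0 to 681 reads for PHOSPHO2-KLHL23 and from 9 to 1320 reads for UBE2F-SCLY, whose bars all end between 2026 and 2201 reads.

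The experiments were then set side by side. Of 90 tested readthrough genes, 35 (38.9%) were on the same side in both, where 54.8% of all genes tested and 54.4% of the parts were. Spearman's rho between the log2 ratios was -0.15 over the 90 genes and 0.12 over all genes, a description across genes that share their libraries. Past 2-fold in both experiments, 4 readthrough genes were on the same side and 7 on opposite sides, and among all genes tested these counts were 147 and 93. The former include PHOSPHO2-KLHL23, LY75-CD302 and IPO11-LRRC70. The latter were ARPC4-TTLL3, BUB1B-PAK6, C8orf44-SGK3, CHURC1-FNTB, INO80B-WBP1, P2RX5-TAX1BP3 and ZFP91-CNTF, named after their values were seen. INO80B-WBP1 had 0 reads in Mock and 91 in Myc-TRIM40 of experiment 1, but 135 and 0 in experiment 2, so each condition held 1 library at 0.

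**Figure D3:**
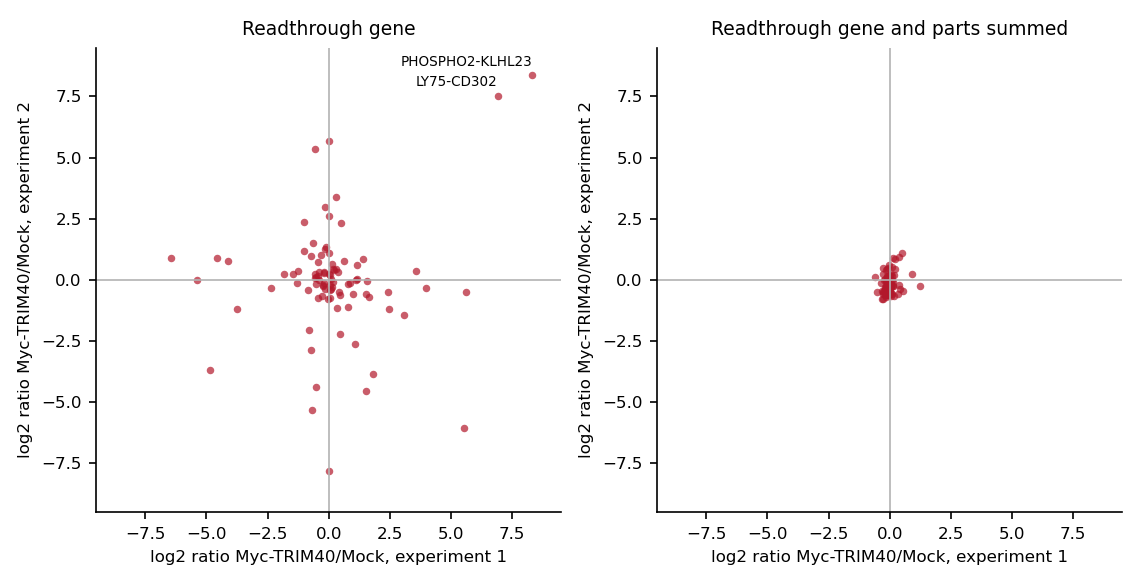
Log2 ratio of Myc-TRIM40 to Mock in experiment 1 (horizontal) and experiment 2 (vertical) for the 90 tested readthrough genes, alone (left) and summed with their parts (right), on equal axes. Single genes reach 8.31 and 8.38 (PHOSPHO2-KLHL23), many points lie along 1 axis, and the summed loci gather near 0.

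ANKHD1-EIF4EBP3, which joins an ankyrin-repeat and KH-domain protein to a translational repressor, had the most reads of all readthrough genes. It had 6868 reads in Mock and 6391 in Myc-TRIM40 of experiment 1, and 1802 and 4341 reads in experiment 2. The highest and the lowest library were both Mock, so the conditions overlapped. ANKHD1 itself had 5089, 6641, 3694 and 4016 reads in the same order of libraries. The readthrough gene took 56.6% (55.7 to 57.4) and 48.0% (47.2 to 48.9) of the locus in experiment 1 and 30.1% (28.96 to 31.29) and 50.1% (49.0 to 51.1) in experiment 2.

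UBE2F-SCLY, which joins a NEDD8-conjugating enzyme to selenocysteine lyase, differed widely between libraries of one condition. It had 9 reads in Mock of experiment 1 and 1320 in Mock of experiment 2, with 543 and 939 reads with Myc-TRIM40. SCLY had 2192 and 829 reads with Mock and 1592 and 1087 with Myc-TRIM40, high where UBE2F-SCLY was low. Their sum was 2201, 2135, 2149 and 2026 reads for Mock and Myc-TRIM40 of experiment 1 and then of experiment 2. The difference of the readthrough gene between the conditions, 58.7-fold higher in experiment 1 and 1.42-fold lower in experiment 2, had no counterpart in that sum. The sum of UBE2F-SCLY and UBE2F was 1820, 2541, 4343 and 3375 reads, with log2 ratios of 0.44 and -0.38, on the same side as the readthrough gene in each experiment.

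JMJD7-PLA2G4B ends in PLA2G4B, a cytosolic phospholipase. It had 959 reads in Mock and 633 in Myc-TRIM40 of experiment 1, and 272 and 783 reads in experiment 2. PLA2G4B had 7, 179, 348 and 6 reads in that order, lowest in the libraries where the readthrough gene was highest. The readthrough share moved by 15.2 percentage points down in experiment 1 and by 39.7 up in experiment 2.

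MSH5-SAPCD1 begins with MSH5, a MutS homologue of meiosis. It had 665 and 1264 reads in experiment 1, then 1046 and 952 in experiment 2, while MSH5 had 1409 and 644, then 502 and 1112. In each experiment the library with more reads in one had fewer in the other. HSPE1-MOB4, which joins the mitochondrial chaperonin Hsp10 to a protein of the MOB family, had 610 and 121 reads in experiment 1, then 1652 and 1314 in experiment 2, so that both libraries of the second experiment were above both of the first. The same held for HSPE1, with 15054 and 14476 reads, then 38598 and 23906. It also held for HSPE1-MOB4 summed with MOB4, with 3139 and 3004 reads, then 6538 and 5354.

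Of the other readthrough genes among the 10 with the most reads, PPAN-P2RY11, which begins with a ribosome biogenesis factor, had 921 and 795 reads in experiment 1, then 704 and 602. TEN1-CDK3, which begins with a telomere-capping protein, had 735 and 637, then 714 and 613. Both were the lower with Myc-TRIM40 in each experiment, by log2 ratios between -0.25 and -0.23, and neither passed the threshold. ATP5J2-PTCD1, which begins with a subunit of ATP synthase, had 714 and 791 reads, then 545 and 561. HNRNPUL2-BSCL2, which ends in the gene for the lipid droplet protein seipin, had 1045 and 642 reads, then 553 and 1086, and changed sides between the experiments. SLX1B-SULT1A4 had 592 and 676 reads, then 782 and 650, and is uncertain because its parts have the near-identical copies SLX1A and SULT1A3. The same holds for SLX1A-SULT1A3, and shared sequence also limits NME1-NME2 and BOLA2-SMG1P6.

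Ranked by the smaller of the changes in the experiments, the next higher readthrough genes after PHOSPHO2-KLHL23 and LY75-CD302 were few-read genes. C1QTNF3-AMACR, which ends in a racemase of fatty acid oxidation, had 0 reads in both Mock libraries and 18 and 3 reads in the Myc-TRIM40 libraries. C21orf59-TCP10L had 86 and 234 reads in experiment 1, then 33 and 62 in experiment 2. STX16-NPEPL1, which begins with a syntaxin of the Golgi, had 44 and 71 reads, then 17 and 31. In the last of these, STX16 had between 7049 and 8434 reads, so the readthrough gene was under 1% of its locus in each library, at most 0.75%.

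On the lower side the next genes were ZNF765-ZNF761, IPO11-LRRC70, RPL17-C18orf32 and ZNF559-ZNF177. RPL17-C18orf32, which begins with a ribosomal protein of the large subunit, had 428 reads in Mock and 253 in Myc-TRIM40 of experiment 1, and 639 and 154 in experiment 2. Both Mock libraries were above both Myc-TRIM40 libraries, and the log2 ratios were -0.79 and -2.05. RPL17 had 46021, 39311, 79595 and 47907 reads in the same order, also lower with Myc-TRIM40 in each experiment, and the summed locus had log2 ratios of -0.27 and -0.77. IPO11-LRRC70, which begins with an importin, had 24 and 0 reads, then 39 and 16. The zinc-finger pairs were at 24 reads or fewer in every library.

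The study selected genes that changed in common in both experiments. Counting a ratio of 1.5 or more in FPKM + 1, the same way in both, PHOSPHO2-KLHL23 was the only readthrough gene counted as higher and 0 were counted as lower, beside 0.26% and 0.0506% of all 27685 genes. The pseudocount of 1 holds back genes of low level. Near the threshold on its outer side were LY75-CD302, with log2 ratios of 0.51 and 0.73 on that scale, and RPL17-C18orf32, with -0.56 and -1.36. PHOSPHO2-KLHL23 stood inside it at 1.75 and 2.18.

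The share of the locus moved by 10 percentage points or more in 12 of 119 loci in experiment 1, 7 up and 5 down, and in 12 in experiment 2, 6 up and 6 down. It moved by that much in the same direction in both experiments at PHOSPHO2-KLHL23, upwards, and at 1 other locus, downwards, and in opposite directions at 4 loci. The shares of the Mock libraries themselves differed by as much in 13 loci. PRH1-PRR4, which joins genes of salivary proline-rich proteins, took 61.7% (56.8 to 66.4) and 68.2% (63.8 to 72.3) in experiment 1 and 47.2% (42.0 to 52.5) and 60.8% (55.7 to 65.7) in experiment 2, from between 341 and 453 locus reads. Further share rises, ARMCX5-GPRASP2 and BORCS8-MEF2B, moved by between 3.42 and 6.65 percentage points, and ARMCX5-GPRASP2 has 0 to 2 reads in its downstream part.

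GPR75-ASB3 joins a G protein-coupled receptor to an adaptor of ubiquitin ligases. It had 251 reads in Mock and 259 in Myc-TRIM40 of experiment 1, and 454 and 0 reads in experiment 2. ASB3 had 706 and 898 reads in experiment 1, then 510 and 1245 in experiment 2, and the sum of both was 957, 1157, 964 and 1245 reads. Summed with GPR75 instead, it had 468, 512, 533 and 199 reads. The single library without readthrough reads was the one with the most ASB3 reads. Its 0 of 1444 locus reads allow a share of up to 0.208%, where Mock of the same experiment had 43.5% (40.5 to 46.6). MIA-RAB4B, which ends in a small GTPase of endosomes, also had 0 reads in that library alone, with 91, 57 and 80 reads in the others. PPT2-EGFL8, which begins with a lysosomal thioesterase, had 593 and 459 reads, then 470 and 472.

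**Figure D4:**
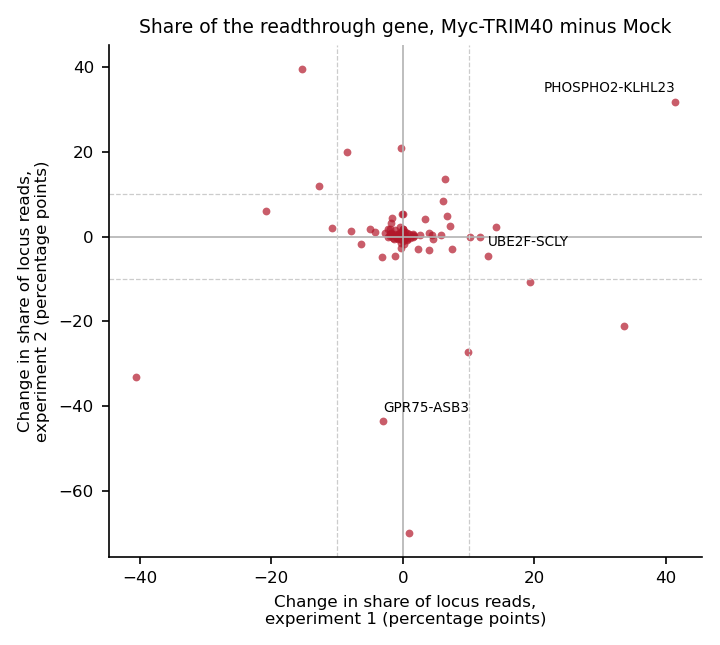
Change of the readthrough gene's share of locus reads, Myc-TRIM40 minus Mock, in percentage points, in experiment 1 (horizontal) and experiment 2 (vertical) for 119 loci. Dashed lines mark 10 points, and PHOSPHO2-KLHL23, at the upper right, is the locus past them upwards in both experiments.

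C8orf44-SGK3, which ends in a serine kinase and was picked out after its values were seen, had the widest change of share in 1 experiment. It had 0 reads in Mock and 5 in Myc-TRIM40 of experiment 1, and 457 and 30 in experiment 2. SGK3 had 279 and 310 reads in experiment 1, then 0 and 474 in experiment 2, so the Mock library with the readthrough reads was the one without reads of SGK3. The share was 74.4% (70.8 to 77.7) in that library and 4.34% (3.05 to 6.12) in the Myc-TRIM40 library of the same experiment.

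The difference between the Mock libraries was not used to choose any gene. Among 92 readthrough genes with at least 10 reads in a Mock library, the median absolute log2 ratio of the Mock libraries was 0.81, and 38 (41.3%) differed by 2-fold or more. Among all 15044 genes with as many reads the median was 0.52 and 19.9% differed by 2-fold. The parts stood at 0.54 and 23.0%, and other genes that overlap a neighbour at 0.54 and 20.7%. The readthrough genes had a median of 108 reads in the Mock libraries and all genes 1384.5. With at least 100 reads in a Mock library the median absolute log2 ratios were 0.80 for 57 readthrough genes and 0.49 for all. That minimum did not equalise depth, since the median reads were then 224 for readthrough genes and 2090.75 for all. On the FPKM + 1 scale the order of the medians turned, with 0.29 for readthrough genes and 0.32 for all. The percentage past 2-fold kept its order on that scale, at 8.70% for readthrough genes and 8.28% for all. Read depth and overlap with the parts both differ from those of other genes here, and their part in the spread was not tested.

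**Figure D5:**
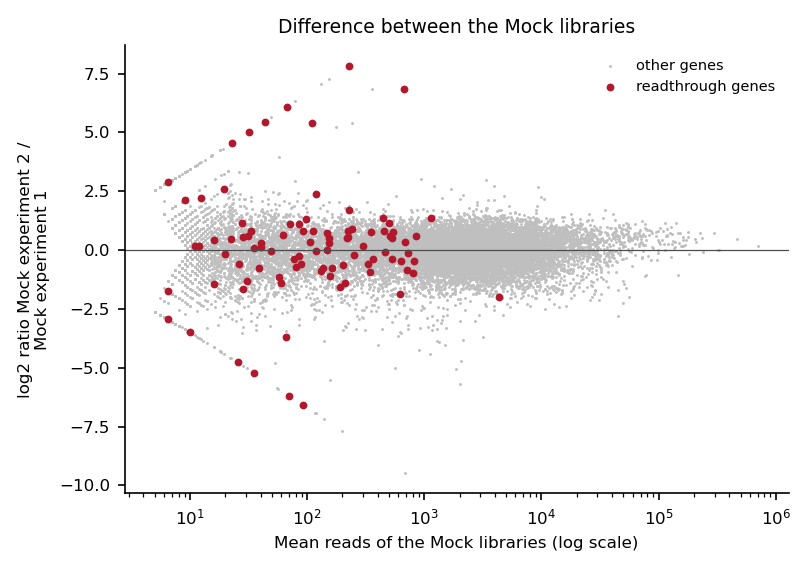
Log2 ratio of CPM between Mock of experiment 2 and Mock of experiment 1 (vertical) against the mean reads of both (horizontal, log scale), for readthrough genes (red) and other genes with at least 10 reads in a Mock library (grey). Red points are found both within and far outside the grey band, and the median absolute ratios are 0.81 and 0.52 for readthrough genes and all genes.

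Shares of readthrough genes past 2-fold were also taken by feature, as a description with no test. Of the 52 with at least 100 reads on average, 34.6% differed by 2-fold between conditions in experiment 1 and 30.8% in experiment 2, and of the 38 with fewer reads 36.8% and 39.5% did. Of 50 tested genes with under 5% private windows, 38% and 42% differed by 2-fold, and of 33 with 5% or more, 27.3% and 24.2%. Of 58 with a coding transcript, 34.5% and 39.7% did, and of 32 without, 37.5% and 25%. Among 26 readthrough genes with several transcripts and at least 10 reads in every library, the transcript with the most reads was the same in all libraries in 17 and differed in 9.

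Genes of the machinery that ends transcripts were read as the other members of the pathway. Of 23 factors of cleavage, polyadenylation and termination, all were tested and 0 passed the threshold of edgeR, with 0 at an unadjusted p under 0.05, and DESeq2 also found 0. Their median log2 ratios were -0.05 and 0.18 in experiments 1 and 2. PCF11, a cleavage factor named as among those with the lowest p, had 3516 and 4115 reads in experiment 1, then 2966 and 4237 in experiment 2 (log2 fold change 0.34, SE 0.22, adjusted p = 0.888 in edgeR). Of 14 factors of nonsense-mediated decay and the exon junction complex, 0 passed, with 0 at an unadjusted p under 0.05 and 0 in DESeq2, and the median log2 ratios were 0.00 and 0.07. SMG1, the kinase of that pathway, had 13296 and 13924 reads, then 4849 and 9424 (log2 fold change 0.49, SE 0.27, adjusted p = 0.888 in edgeR). With 2 libraries a condition an exact permutation test of a single value that ignores the pairing cannot go below 0.333. A test within the experiments has fewer arrangements still. A p that misses the threshold does not show that levels were alike.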

How the data were processed

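RNA-seq of HT-29 cells, 2 Mock and 2 Myc-TRIM40 libraries, was used. The authors deposited whole-number read counts per RefSeq transcript, not normalized, with FPKM, which is scaled by transcript length and library, and TPM for experiment 2. For experiment 1, TPM was obtained here by rescaling FPKM. The submitters' processing notes name HISAT2 2.1.0, StringTie 1.3.4d and hg19 without giving their order, and how reads of shared exons were divided is not given in the sources used here. The library kit keeps strand, but the strand setting of the counting is not given either.

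Transcripts were summed per gene. edgeR 4.0.16 in R 4.3.3 (glmQLFit, glmQLFTest, filterByExpr, TMM, Benjamini-Hochberg) tested 14868 genes with the experiment as a block. Log2 ratios within an experiment are of TMM-scaled CPM with a prior count of 2. Alternatives were DESeq2 1.42.0, limma 3.58.1 on log2(FPKM + 1), upper-quartile factors, no filter, no block, summed loci, other units, pseudocounts and minimums, and each experiment alone. Summing with a single part was chosen after seeing the data. Pairing comes from the labels' replicate numbers and the files, each holding a Mock and a Myc-TRIM40 library, and deviations of same-numbered libraries correlated at 0.449. The scripts were tested on simulated data. Sequences are from GENCODE 29 transcripts matched by RefSeq name. Python 3.11.15, numpy 2.4.6, pandas 2.3.3, scipy 1.17.1 and matplotlib 3.10.9 did the rest.

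The named genes were those past the edgeR threshold, the 10 with the most reads, the 5 largest rises and 5 largest falls in reads and in share ranked by the smaller change of the experiments, up to 3 on each side of the 1.5-fold threshold, and the parts of these. Some results that this rule covers are not reported here. The members and lists were chosen with earlier results of these data known. Nothing in the sources ties the libraries to separate cultures beyond their being independent experiments, and p-values measure the spread between these 4 libraries.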

Additional observations from a re-analysis of the deposited data

How the results depend on the processing

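The call of 2 readthrough genes as higher became 0 without the replicate block, 0 with DESeq2, 0 with no filter, 1 with limma and 0 summed to a locus, and that of 1 as lower became 0 without the block, 0 with no filter, 0 with limma and 0 as a locus. Genes changed in common, 1 higher and 0 lower, became 3 and 4 with a pseudocount of 0.1, 6 and 7 in CPM and 3 and 2 in TPM. Summed loci gave 0 higher, and median-centring gave 1 lower. With 1 experiment left out, 9 to 13 were higher and 3 to 7 lower. The share then moved up by 10 points at 6 to 7 loci and down at 5 to 6, against 1 and 1. Shares over all genes are not given for these settings, so nothing about readthrough genes is read from these counts. The log2 fold change of edgeR turned from 12.34 for PHOSPHO2-KLHL23 to -0.24 as a locus. The sums with a single part were not fitted, and their log2 ratios averaged over the experiments were -0.20 with KLHL23 and 1.79 with PHOSPHO2. On the scale of these averages the readthrough gene alone had log2 ratios of 8.31 and 8.38 in experiments 1 and 2. The fitted 12.34 is therefore not directly comparable with them. Each sum also holds the reads of parts. The causes of the differences were not tested. For PHOSPHO2-KLHL23 and LY75-CD302, 16 of 18 values under the alternatives kept their direction, 7 of them no longer past the threshold. Only upper-quartile factors kept both genes past it (adjusted p = 0.0074 and 0.020 in edgeR). The values of each experiment alone and of the sums with a single part had no test. For 23 named genes that passed no threshold, 139 of 155 values kept their direction and 16, from 13 genes, did not. With 1 experiment left out no residual degrees of freedom remain, so no count of calls was made. Low read numbers and 2 experiments limit every value of a readthrough gene.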
